A study of Arabidopsis thaliana with 12 samples.

Results

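The CYCLING DOF FACTOR (CDF) family of Arabidopsis thaliana is a group of Dof-type zinc finger transcription factors, and its 6 genes CDF1 to CDF6 are described here out of 27444 annotated nuclear protein-coding genes. The family was selected on its listed changes in FPKM and in splicing reads in the authors' deposited tables, and its genes were found there by identifier. Every value from those comparisons is therefore a description with no test. The libraries came from total RNA of whole seedlings after removal of ribosomal RNA, 12 in all. They form 4 groups of 3: rrc1-3 kept dark, Col-0 kept dark, irradiated rrc1-3 and irradiated Col-0. All seedlings grew for 4 days without light, and irradiation lasted 3 h, with red light of 7 µmol m-2 s-1. Col-0 is the wild type, and rrc1-3 is a mutant line of the splicing-related gene RRC1 in the Col-0 background, so genotype stands on a single allele.

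CDF proteins bind DNA through a single Dof zinc finger and act mainly as repressors. CDF1, CDF2, CDF3 and CDF5 together hold down CONSTANS (CO), the transcription factor that drives flowering in long days, and its target FLOWERING LOCUS T (FT). The blue-light receptor FKF1 with the clock protein GIGANTEA (GI) marks CDF proteins for degradation late in the day. Transcription of the genes peaks in the morning: the clock factors CCA1 and LHY promote it, and the pseudo-response regulators PRR9, PRR7 and PRR5 repress it. The FKF1 and GI step acts on protein, which was not measured here.

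The genes lie on 4 chromosomes of the TAIR10 build, with starts and ends as in the deposited tables. CDF1 (AT5G62430) is at chr5:25069093-25070934 on the minus strand, CDF2 (AT5G39660) at chr5:15878699-15881044 on the plus strand, and CDF3 (AT3G47500) at chr3:17504000-17506058 on the minus strand. CDF4 (AT2G34140) is at chr2:14413758-14414765, CDF5 (AT1G69570) at chr1:26161528-26163496 and CDF6 (AT1G26790, named DOF1.3 by the authors) at chr1:9273692-9275383, all 3 on the minus strand. CDF4 is the shortest, with a coding length of 513 nt in 1 exon, and the other 5 have coding lengths of 897 to 1374 nt and 1 intron within the coding sequence each.

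**Figure D1:**
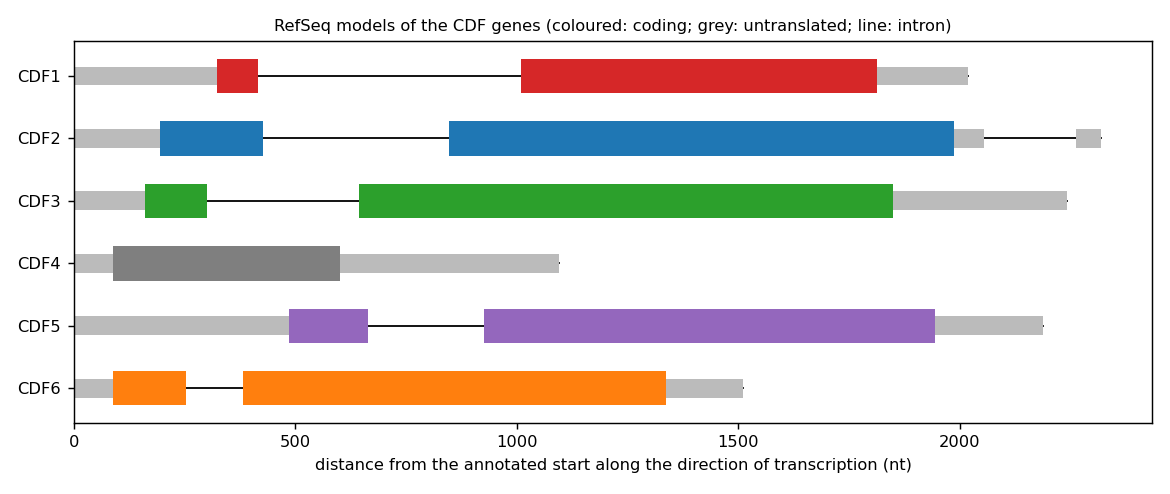
RefSeq models of the 6 CDF genes, drawn along the direction of transcription from the annotated start (x axis, nt). Coloured boxes are coding sequence, grey boxes untranslated exons and lines introns; 5 genes have 1 intron early in the coding sequence, and CDF4 has none.

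The intron interrupts the coding sequence of the 5 genes early. It follows 31 codons in CDF1, 78 in CDF2, 47 in CDF3, 60 in CDF5 and 55 in CDF6, and in all 5 it falls between codons (phase 0), which holds for 56.2% of the 113761 coding introns of the annotation. Its length is 593 nt in CDF1, 419 nt in CDF2, 342 nt in CDF3, 260 nt in CDF5 and 129 nt in CDF6, against a median of 98 nt over those coding introns. The CDF1 intron, at chr5:25070102-25070694, is the longest of the family and stands at the 97.7th percentile of length. The 5′ splice sites are shown because the CDF1 intron is the only member intron with a usable splicing entry. Each sequence is read from the TAIR10.1 reference on the gene's own strand, with 8 exon bases before the intron and the GT that opens it in capitals.
CDF1: aagaaaagGTactcattatt
CDF2: ataaaaagGTtagttttttt
CDF3: cagagaagGTactgattgat
CDF5: caatcaggGTatgtcatgag
CDF6: cacacatgGTatgtttcatg
The CDF1 site is at chr5:25070683-25070702, and its other end, with the closing AG in capitals, is at chr5:25070094-25070123.
CDF1 3′ splice site: cgatttcattgtcttgcatcAGaaccaaaa
Scored against the base frequencies of all GT splice sites, the CDF1 site stood at the 47.3rd percentile, CDF3 at the 39.3rd, CDF5 at the 68.2nd, CDF6 at the 86.0th and CDF2 at the 94.5th. The CDF1 site thus lay near the middle of the genome's range.

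In the dark, all 6 CDF genes were listed by the authors as lower in rrc1-3 than in Col-0. The authors' deposited tables give 1 pooled FPKM (fragments per kilobase of transcript, scaled to the mapped fragments) per group, with no value per library, so no SD and no test of single genes could be given, and the depth behind each FPKM is unknown. Genes are in these tables only if the authors called them, with a q-value up to 0.05 and, in both genotype tables, no absolute log2 change under 0.58. Of all nuclear protein-coding genes 19.7% were listed in this comparison, and of the 5630 listed entries 44.7% were lower. The median log2 fold change was -0.95 over the 6 genes and 0.64 over all listed entries.

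Among the repressors of CO, CDF1 had the lowest relative level. The authors' deposited table gave CDF1 0.404 FPKM in rrc1-3 and 2.13 FPKM in Col-0, a log2 fold change of -2.39 that left 19.0% of the Col-0 level. Counted from the lowest log2 fold change, it ranked 78th of the 5630 listed entries. The other repressors kept about the same part of their Col-0 level as each other. CDF2, which acts with CDF1 on CO, had 18.0 FPKM in rrc1-3 and 38.1 FPKM in Col-0 (log2 fold change -1.08) by the authors' deposited table. CDF3, also known for roles in cold and drought tolerance, had 6.20 FPKM in rrc1-3 and 11.99 FPKM in Col-0 (-0.95) by the authors' deposited table. CDF5, which also promotes hypocotyl growth, had 43.0 FPKM in rrc1-3 and 80.7 FPKM in Col-0 (-0.91) by the authors' deposited table. CDF2, CDF3 and CDF5 thus lay between 47.2% and 53.3% of their Col-0 level, above CDF1. The gap rests on low CDF1 values. With 1 FPKM added to both groups, more than the CDF1 value in rrc1-3, the log2 fold change was -1.15 for CDF1 and -1.04 for CDF2. With 0.1 FPKM added it was -2.14 for CDF1 and -1.08 for CDF2.

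The other 2 members are not among the repressors of CO named above. CDF4, known for promoting columella differentiation in the root cap, had 2.92 FPKM in rrc1-3 and 4.57 FPKM in Col-0 by the authors' deposited table, the smallest change of the family (log2 fold change -0.65). CDF6 had 0.371 FPKM in rrc1-3 and 0.720 FPKM in Col-0 (-0.96) by the authors' deposited table, and was the lowest member in both groups. Its deposited q-value, 0.0219, was the one nearest to the authors' threshold. Only 2 of the 6, CDF1 and CDF2, were lower by a log2 of 1 or more, as were 19.0% of the 5630 listed entries.

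**Figure D2:**
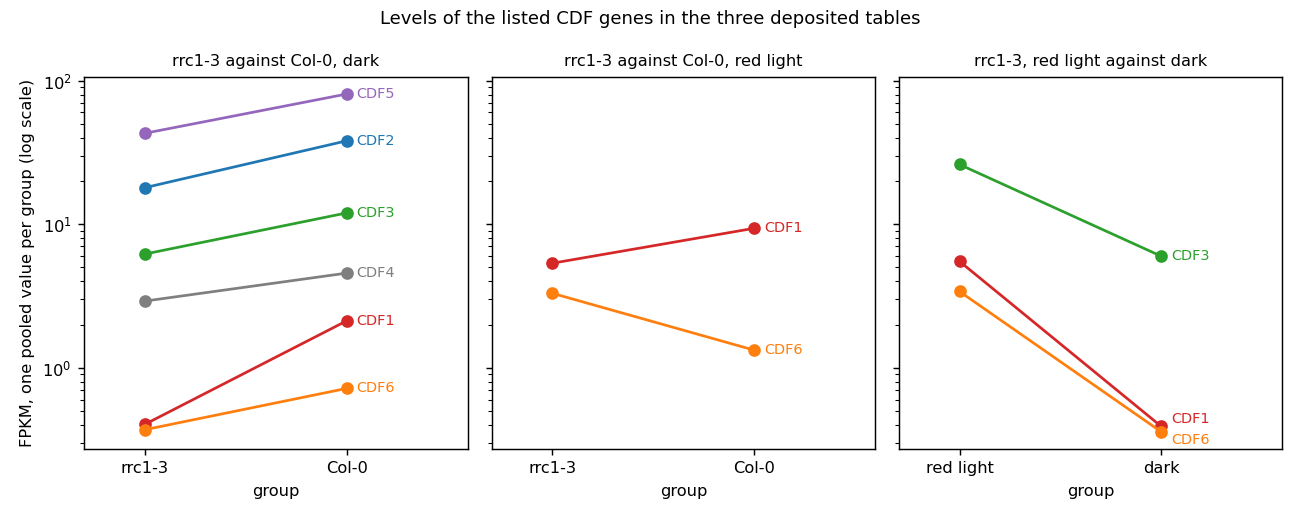
FPKM of each listed CDF gene (log axis, 1 pooled value per group, no error available), with rrc1-3 left of Col-0 in the dark and in red light and red light left of dark in rrc1-3. All 6 lines slope up toward Col-0 in the dark, CDF1 and CDF6 slope in opposite directions in red light, and CDF1, CDF3 and CDF6 are higher in red light than in the dark.

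The order of the members and the share of the leading ones were alike in both genotypes in the dark. From highest to lowest FPKM the order was CDF5, CDF2, CDF3, CDF4, CDF1, CDF6 in both groups. Neighbours in that order cannot be separated by replicate error, since the values are pooled. The 6 FPKM values of the authors' deposited table summed to 70.8 in rrc1-3 and 138 in Col-0. CDF5 and CDF2 together made up 86.0% of that sum in rrc1-3 and 86.0% in Col-0. CDF1 made up 0.571% of it in rrc1-3 and 1.54% in Col-0.

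GC content and length of genes moved with direction in this table. Of the listed genes in the same quintile of exon GC content as each member, 25.9% to 59.9% were lower in rrc1-3, and in the same quintile of exon length 20.9% to 56.9%. The lowest of these shares belonged to CDF2, with 2421 nt of exon and 20.9% lower in its length class, and to CDF3, with 42.4% GC and 25.9% lower in its GC class. The part of GC content and length in the members' values was not tested. CDF5 is overlapped over 1241 bp (chr1:26161551-26162791) by FLORE (AT1G69572), a long noncoding RNA on the opposite strand. No strand is stated for the libraries, so reads of CDF5 and FLORE cannot be told apart there. FLORE was itself not listed in any expression table.

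CDF genes are expressed in the vasculature, and CDF repression of FT takes place in phloem companion cells. None of 6 companion cell markers (SUC2, AHA3, APL, SWEET11, SWEET12, FTIP1) was listed between the genotypes, where 19.7% of nuclear protein-coding genes were listed in the dark and 14.0% after red light. In rrc1-3, 2 of the 6 (33.3%) were listed as higher in red light than in the dark, where 20.3% were listed in either direction. In the authors' deposited table AHA3, a companion cell proton pump, had 29.2 FPKM in red light and 18.8 FPKM in the dark. APL, a phloem identity factor, had 6.55 FPKM in red light and 4.97 FPKM in the dark in the authors' deposited table. In whole seedlings, fewer cells of a type and less RNA per cell cannot be told apart.

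After red light, 2 of the 6 CDF genes were listed between the genotypes, and they moved in opposite directions. Of all nuclear protein-coding genes 14.0% were listed. CDF1 remained lower in the mutant, with 5.35 FPKM in rrc1-3 and 9.37 FPKM in Col-0 (log2 fold change -0.81) by the authors' deposited table, where 48.4% of the 4031 listed entries were lower. CDF6 was higher in the mutant, with 3.31 FPKM in rrc1-3 and 1.33 FPKM in Col-0 (1.31) by the authors' deposited table, where 51.6% of listed entries were higher. CDF6 thus had opposite signs in the dark and in red light. CDF2, CDF3, CDF4 and CDF5 were not listed, which does not show that they were equal, because calls need both a low q-value and a minimum fold.

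Within rrc1-3, CDF1, CDF3 and CDF6 were listed as higher in red light than in the dark, and none of the 6 was listed as lower. In this comparison 20.3% of nuclear protein-coding genes were listed, and of the 5711 listed entries 62.9% were higher and 37.1% lower. CDF1 had 5.52 FPKM in red light and 0.391 FPKM in the dark in the authors' deposited table, 14.1-fold higher (log2 fold change 3.82). CDF6 had 3.40 FPKM in red light and 0.358 FPKM in the dark in the authors' deposited table, 9.50-fold higher (3.25). CDF3 had 26.1 FPKM in red light and 5.98 FPKM in the dark in the authors' deposited table, 4.36-fold higher (2.12).

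Counted from the highest log2 fold change, CDF1 ranked 73rd, CDF6 116th and CDF3 402nd of 5711 entries. All 3 were higher by a log2 of 1 or more, as were 23.6% of listed entries. CDF2, CDF4 and CDF5, which include both members with the highest FPKM in the dark, were not listed.

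**Figure D3:**
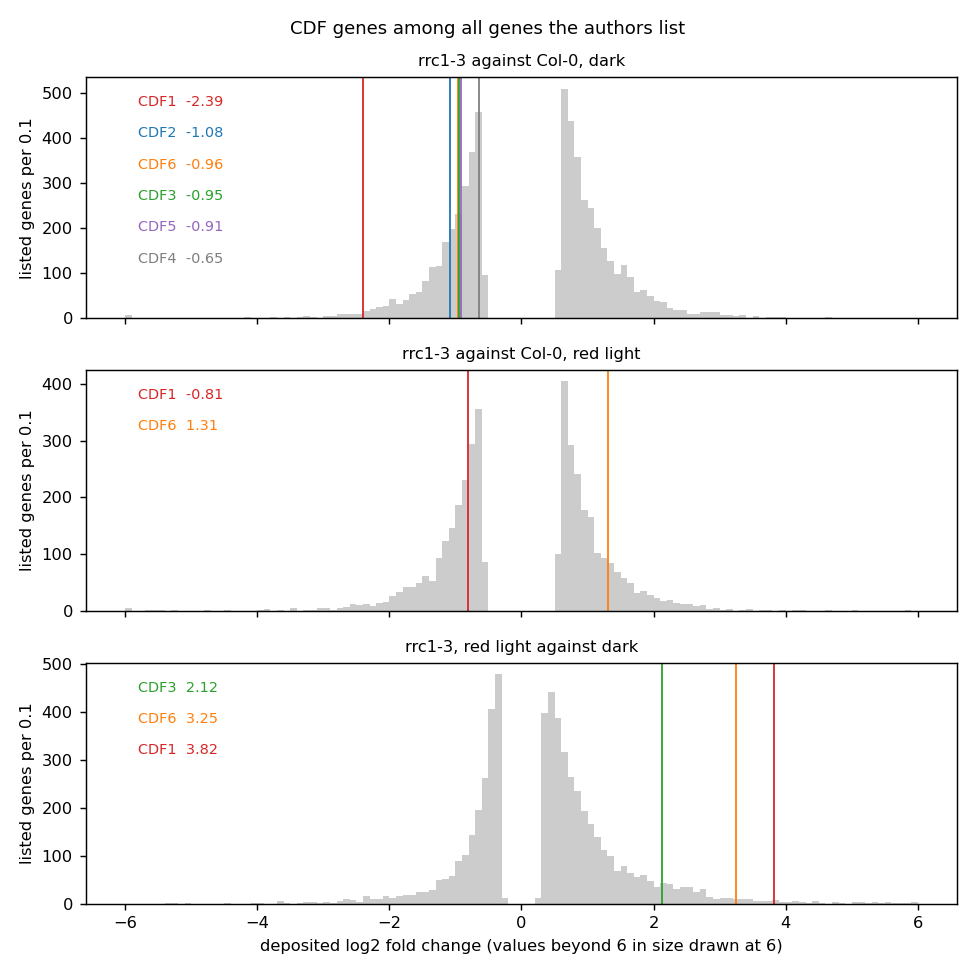
Number of listed genes (y axis) by deposited log2 fold change (x axis, bins of 0.1) in the 3 comparisons, with a coloured line at each listed CDF gene. All 6 lines lie left of 0 in the dark, CDF1 and CDF6 lie on opposite sides in red light, and CDF3, CDF6 and CDF1 lie at 2.12, 3.25 and 3.82 in the light response of rrc1-3.

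Red light was not set against dark in Col-0 in a comparison of its own here. Set side by side across the authors' deposited tables for the dark and for red light, which were scaled separately, the Col-0 values of CDF1 were 9.37 FPKM in red light and 2.13 FPKM in the dark, a ratio of 4.41. For CDF6 the authors' deposited tables gave 1.33 FPKM in red light and 0.720 FPKM in the dark, a ratio of 1.85. Both ratios were below the 14.1 and 9.50 within rrc1-3, but they cross tables and the difference was not tested. The scale between tables can be gauged from rrc1-3, whose values in the light response table were a median of 0.966 times those of the dark table (2306 shared entries) and 1.03 times those of the red light table (1592 shared entries). The comparisons share groups, so their values for a gene are not independent of each other.

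The CDF1 intron was the only splicing entry of the family that reports on a CDF transcript. It was listed in red light against dark within rrc1-3, where 25.9% of the 806 listed intron entries had lower retention in red light. Retention is the share of reads that run across an exon-intron boundary (mean of both boundaries) among those and the reads that join the exons. The 3 rrc1-3 red light libraries had 59, 88 and 109 spliced reads, and the 3 rrc1-3 dark libraries had 0, 2 and 3. Every red light library thus held far more spliced CDF1 reads than any dark library.

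By the authors' deposited table, which pools the libraries of a group, retention of the CDF1 intron was 19.0% in red light and 76.7% in the dark. The difference, -57.8 percentage points as red light minus dark, was the eighth largest in size among the 806 intron entries. Boundary reads per library were used for the dark group only, because the names of the red light boundary columns match no single sample. At the first-listed boundary the dark libraries had 4, 10 and 4 reads, and at the second-listed boundary 8, 1 and 6. Retention was 100%, 73.3% and 62.5% in these libraries, with a mean of 78.6% ± 19.3 (SD, n = 3), so all 3 lay above the pooled red light value.

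The dark values rest on few reads. At the first-listed boundary the exact (Clopper-Pearson) 95% intervals of the share of boundary reads ran over 39.8% to 100%, 51.6% to 97.9% and 18.4% to 90.1% in the dark libraries. There the interval of the third dark library began below the pooled red light value of 19.0%. At the second-listed boundary the intervals ran over 63.1% to 100%, 0.840% to 90.6% and 29.9% to 92.5%. There the interval of the second dark library began below 19.0%. These intervals cover counting error only, and without the dark library at 100% the dark mean was 67.9%.

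Spliced CDF1 reads averaged 85.3 ± 25.1 per library in red light and 1.67 ± 1.53 in the dark (SD, n = 3 each). Their sums, 256 in red light and 5 in the dark, had a ratio of 51.2, while spliced reads of all entries in that table had a ratio of 1.39. Both are ratios of unscaled counts, and the entries behind 1.39 were listed for this same contrast. The pooled FPKM of the CDF1 gene, which is scaled to mapped fragments, was 14.1-fold higher in the authors' deposited table. The ratio of 51.2 rests on 5 dark reads, so its gap to 14.1 was not tested.

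**Figure D4:**
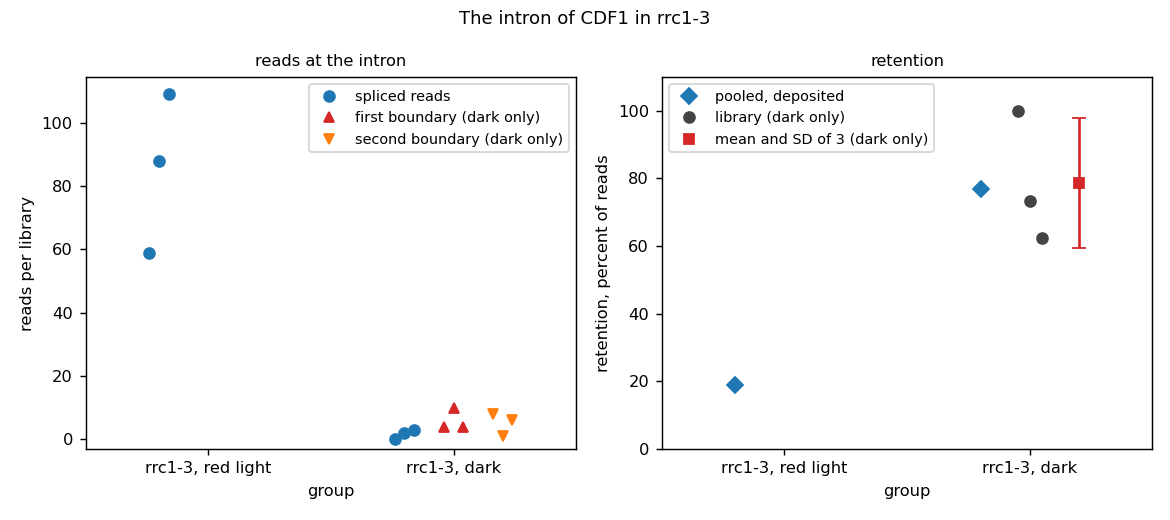
Left: reads at the CDF1 intron per rrc1-3 library, red light left of dark (circles spliced reads, triangles boundary reads, used for the dark group only). Right: retention in percent, with diamonds for the authors' pooled values and, for the dark group, circles for libraries and a square with a bar for the mean ± SD of 3. Spliced reads are 59 to 109 in red light and 0 to 3 in the dark, and pooled retention is 19.0% in red light and 76.7% in the dark.

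A single entry under the name of CDF2 appears in the dark comparison of the genotypes. It is an annotated retained intron of 208 nt near the 3′ end of the gene (chr5:15880780-15880987). The reads deposited with it belong to a junction outside CDF2, so the entry gives no value for CDF2 splicing. No member was listed for splicing between the genotypes in red light. The introns of CDF3, CDF5 and CDF6 and the coding intron of CDF2 were not listed in any comparison.

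Of the 30 other Dof genes 4 (13.3%) were listed in the dark, against 19.7% of nuclear protein-coding genes, and 3 of the 4 were lower in rrc1-3. In the authors' deposited table DOF3.1 (AT3G21270) had 12.5 FPKM in rrc1-3 and 33.8 FPKM in Col-0 (log2 fold change -1.44). By the authors' deposited table DOF1.6 (AT1G47655) had 3.98 FPKM in rrc1-3 and 9.15 FPKM in Col-0 (-1.20). DOF5.4 (AT5G60850, also called OBP4, a repressor of cell cycle and root hair growth) had 58.0 FPKM in rrc1-3 and 115 FPKM in Col-0 (-0.99) by the authors' deposited table. DOF5.6 (AT5G62940), a regulator of vascular cambium, was the one that was higher, with 3.25 FPKM in rrc1-3 and 2.12 FPKM in Col-0 (0.62) by the authors' deposited table. None of these 4 changes reached the size seen for CDF1, but those of DOF3.1 and DOF1.6 were larger than that of CDF2 (-1.08). The change of DOF5.4 was larger than those of CDF3, CDF4, CDF5 and CDF6. In red light DOF1.6 was the 1 gene of the 30 listed (3.33%, against 14.0% of nuclear protein-coding genes), with 4.04 FPKM in rrc1-3 and 6.86 FPKM in Col-0 (-0.76) by the authors' deposited table. Within rrc1-3, 4 of the 30 were higher in red light than in the dark and none was listed as lower, with log2 fold changes of 0.95 for DOF5.4, 0.68 for DOF2.1, 0.67 for DOF1.7 and 0.46 for DOF1.1 in the authors' deposited table. These 4 (13.3%, against 20.3% of nuclear protein-coding genes) were below the 2.12 of CDF3.

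The pathway around the CDF proteins was followed through 21 genes. In the dark 6 (28.6%) were listed, 5 lower and 1 higher in rrc1-3, where 19.7% of nuclear protein-coding genes were listed. The activators of CDF transcription were both lower: CCA1 had 10.2 FPKM in rrc1-3 and 21.7 FPKM in Col-0 (log2 fold change -1.09), and LHY had 8.98 FPKM in rrc1-3 and 19.99 FPKM in Col-0 (-1.15), by the authors' deposited table. GI, the partner of FKF1, was the one higher, with 30.7 FPKM in rrc1-3 and 18.4 FPKM in Col-0 (0.74) by the authors' deposited table. By the authors' deposited table FBH3 and FBH4, bHLH activators of CO, had 16.9 and 14.6 FPKM in rrc1-3, against 29.1 and 24.2 FPKM in Col-0. COL1, a close paralog of CO, had 9.14 FPKM in rrc1-3 and 14.5 FPKM in Col-0 (-0.67) by the authors' deposited table.

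In red light 2 of the 21 (9.52%) were listed, both higher in rrc1-3, where 14.0% of nuclear protein-coding genes were listed. CO, the repressed target of the CDF proteins, had 1.06 FPKM in rrc1-3 and 0.372 FPKM in Col-0 (log2 fold change 1.51) by the authors' deposited table. Its deposited q-value was 0.0351, and its Col-0 FPKM lay at the 7.89th percentile of the listed entries. GI had 68.9 FPKM in rrc1-3 and 41.6 FPKM in Col-0 (0.73) by the authors' deposited table. FT and its paralog TSF were not listed in any comparison, nor were FKF1, LKP2, PRR3, TOC1 and FBH2.

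Within rrc1-3, 11 of the 21 (52.4%) were listed as higher in red light than in the dark and none as lower. Of nuclear protein-coding genes 20.3% were listed in either direction, and 62.9% of listed entries were higher. By the authors' deposited table LHY had 48.7 FPKM in red light and 8.68 FPKM in the dark (log2 fold change 2.49). CCA1 had 36.2 FPKM in red light and 9.82 FPKM in the dark (1.88) in the authors' deposited table. PRR9 had 17.6 FPKM in red light and 3.38 FPKM in the dark (2.38) in the authors' deposited table. Activators and repressors of CDF transcription were thus higher together, with PRR5 at a log2 fold change of 1.28 and PRR7 at 0.88 in the authors' deposited table. COL2, another CO paralog, had the largest change of the 21, with 44.4 FPKM in red light and 2.41 FPKM in the dark (4.20) in the authors' deposited table. COL1 (1.77), GI (1.26), FBH3 (1.06), ZTL (0.57) and FBH1 (0.43) made up the rest in the authors' deposited table.

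**Figure D5:**
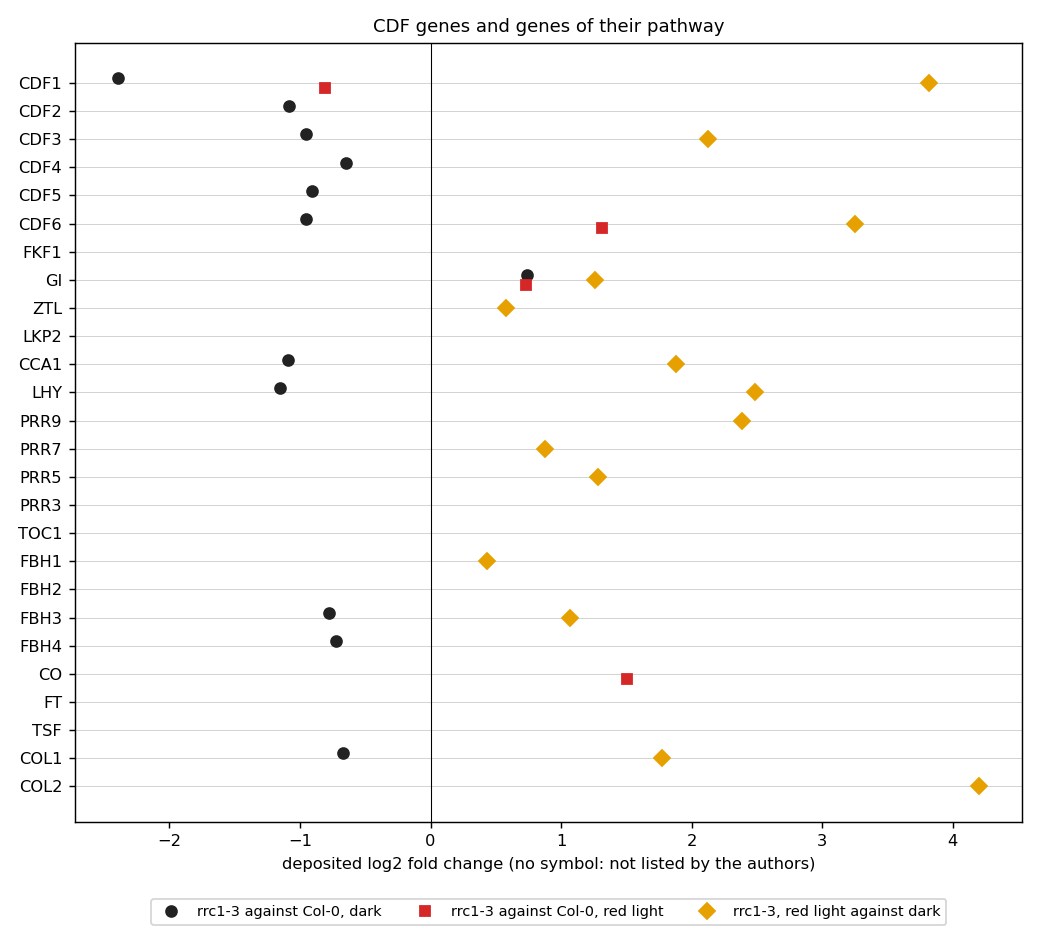
Deposited log2 fold change (x axis) of the 6 CDF genes and 20 genes of their pathway (rows) in the 3 comparisons; FLORE, which was never listed, has no row, and a gene without a symbol was not listed. The circles of CDF1 to CDF6, CCA1 and LHY lie left of 0 and that of GI right of 0, while all diamonds, for red light against dark in rrc1-3, lie right of 0.

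COL2 paired a large rise in level with a large fall in retention, as did CDF1. Its intron (chr3:487798-487940) was retained at 14.0% in red light and 61.4% in the dark in rrc1-3 by the authors' deposited table. The listed introns of CCA1 and LHY were also less retained in red light, by smaller amounts: the largest of these, an intron of CCA1 (chr2:19246385-19246862), had 15.4% in red light and 25.7% in the dark in the authors' deposited table. These values are set beside the CDF1 intron as a description. Retention is a share of reads, so a fall in it does not show a fall in unspliced reads.

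Promoters were read for the members because all 6 were lower in rrc1-3 in the dark. Over the 250 bases before the farthest annotated start, CDF2 and CDF3 share a run of 14 bases on the same strand, and the other 14 pairs of members share runs of 8 to 11 bases at most. The run was found in 2 of 27443 promoters of that length, those of CDF2 and CDF3 from which it was taken, and in no other. It begins 100 bases before the start of CDF2 and 18 bases before that of CDF3, and is in capitals in the 2 promoters, at chr5:15878448-15878697 on the plus strand and chr3:17506125-17506374 on the minus strand.
CDF2 promoter: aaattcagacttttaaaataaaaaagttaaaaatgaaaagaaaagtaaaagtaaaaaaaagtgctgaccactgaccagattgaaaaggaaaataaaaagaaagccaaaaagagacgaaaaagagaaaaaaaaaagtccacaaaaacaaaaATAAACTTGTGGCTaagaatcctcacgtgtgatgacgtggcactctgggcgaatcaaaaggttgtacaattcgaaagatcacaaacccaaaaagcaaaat
CDF3 promoter: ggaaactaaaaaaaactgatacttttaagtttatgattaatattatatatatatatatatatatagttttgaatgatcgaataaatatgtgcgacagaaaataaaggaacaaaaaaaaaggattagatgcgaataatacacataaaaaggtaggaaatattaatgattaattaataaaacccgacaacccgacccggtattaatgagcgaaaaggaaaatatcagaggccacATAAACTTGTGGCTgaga
The run was picked out after the promoters were compared, and no factor is assigned to it.

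Motifs of the clock and light factors were searched on both strands. The evening element (AAAATATCT), found in 2.36% of all 250-base promoters, was in none of the 6, and also in none when the window was 1000 bases. The CCA1-binding site (AAAAATCT), found in 6.69% of 250-base promoters, was in that of CDF5 alone, and so it was over 1000 bases (21.1% of promoters). The G-box (CACGTG), found in 6.49% of 250-base promoters, was in that of CDF2 alone, 77 bases before the start. Over 1000 bases, where 14.8% of promoters hold it, CDF5 had 3 G-boxes besides, at 711, 779 and 875 bases before the start. None of the 3 motifs contains another, and a match or its lack says nothing about binding.

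By pattern over the 3 comparisons, the genes nearest to CDF1 among the 1153 listed in all 3 were AT1G14950, AT5G57785, CP12-2, HSFA6A and AT3G52360, at distances of 0.929 to 2.06 in log2 fold change. CP12-2 encodes a regulator of the Calvin cycle, and HSFA6A a heat shock factor. AT1G14950 had log2 fold changes of -2.53 in the dark, -1.005 in red light and 2.92 for red light in rrc1-3 in the authors' deposited table. Nearest to CDF6 were AT3G48131, RUP1, AT2G46420, TT5 and AFR, at 1.01 to 1.78. RUP1 represses the UV-B receptor, TT5 is chalcone isomerase and AFR is an F-box protein of phytochrome A signalling. Of these 5, AT3G48131 and RUP1 had the sign pattern of CDF6: AT3G48131 had -1.75 in the dark and 1.30 in red light, and RUP1 had -0.88 in the dark and 0.68 in red light, in the authors' deposited table.

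At RRC1 itself, the intron with the largest rise in retention in rrc1-3 is given as a description, since it was picked for that rise. Spliced reads across this intron at chr5:8634834-8635302 were 12, 2 and 10 in rrc1-3 and 237, 173 and 194 in Col-0 in the dark, and 3, 10 and 20 in rrc1-3 and 165, 174 and 181 in Col-0 in red light. It was the 1 intron with fewer spliced reads in rrc1-3 of the 4 RRC1 introns listed in the dark and of the 6 listed in red light. Markers of both light states were higher in rrc1-3: PORA, the protochlorophyllide reductase of dark-grown seedlings, and the early light-induced proteins ELIP1 and ELIP2. By the authors' deposited table for the dark, PORA had 524 FPKM in rrc1-3 and 146 FPKM in Col-0 (log2 fold change 1.84), ELIP1 13.1 FPKM in rrc1-3 and 3.48 FPKM in Col-0 (1.91), and ELIP2 10.4 FPKM in rrc1-3 and 4.54 FPKM in Col-0 (1.19). In red light PORA had 157 FPKM in rrc1-3 and 27.6 FPKM in Col-0 (2.50), and ELIP1 and ELIP2 had log2 fold changes of 2.28 and 0.94, by the authors' deposited table. The part of these light states in the members' values was not tested. Within rrc1-3, ELIP1 had 1325 FPKM in red light and 12.6 FPKM in the dark in the authors' deposited table. Spliced reads summed over listed entries ranged from 1041334 to 1361467 per library between genotypes in the dark. They ranged from 1182847 to 1566429 between genotypes after red light, and from 267729 to 459897 for red light against dark within rrc1-3. These sums follow the number of listed entries, so they do not compare depth between the comparisons. The median per listed entry was 75 to 117 spliced reads per library between genotypes, and 153 to 263 within rrc1-3.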

How the data were processed

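The submitters' processing notes name TopHat2, a read aligner, with its version not given in the sources used here, and TAIR10 as genome build. The authors deposited 1 pooled FPKM per group, a log2 fold change, and a p-value and q-value per listed gene. The splicing tables hold counts of reads per junction or boundary and library, with a fraction and its difference (a score) as deposited by the authors. Columns of the second group of each table carry no replicate number of the labels, so 18 columns of boundary reads were not used. The spliced-read columns of that group have the same limit, and were used as values of the group with no sample assigned to each. Whether libraries were separate cultures is not stated, so spread may be technical.

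Retention per dark rrc1-3 library (mean of both boundaries over that plus spliced reads) was computed from the deposited counts, with exact intervals for counting error only (Python 3.11.15, pandas 2.3.3, scipy 1.17.1, matplotlib 3.10.9). Planned edgeR tests of the Col-0 light response and of its difference between genotypes were not run, because no member feature is listed in both genotype tables. All members, all listed pathway genes, the 4 other Dof genes of largest change and the 5 nearest genes by Euclidean distance are named. Members and lists were chosen with earlier results of these data known. In the TAIR10.1 reference 98.9% of 9933 listed introns were GT-AG. Promoters and introns were read from that RefSeq assembly. Libraries of a group shared at most 3.08% identical spliced counts.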

Additional observations from a re-analysis of the deposited data

How the results depend on the processing

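With a log2 change of at least 1, the members listed as lower were 2 in the dark and 0 in red light, against 6 and 1 as deposited; a deposited q-value of 0.01 or less, or at least 1 FPKM in one group, left 5 in the dark and no other count changed. CDF6 was the member lost by both. With a pseudocount of 0.1 all 11 log2 fold changes shrank by less than 1.5 times. With a pseudocount of 1 all 11 shrank, 4 of them by more than 1.5 times: CDF1 to -1.15 and CDF6 to -0.33 in the dark, and CDF1 to 2.23 and CDF6 to 1.70 in the light response. No direction reversed. The splicing entry of CDF2 in the dark left a count of 0 under a difference of at least 10 points, under at least 10 spliced reads in every library, and when junctions had to lie in the named gene, which was chosen after seeing the data. The entry of CDF1 also left 0 under at least 10 spliced reads in every library. Retention of this intron in the dark was 80.2% from the first-listed boundary alone, 66.7% from the second, and 67.9% to 86.7% when each dark library was left out in turn, and the difference in mean spliced reads was 71.8 to 96.8 when any 1 library was left out. Library-level retention differences were not run, since the red light boundary columns were not used. No paired analysis was possible because the second group's columns carry no replicate numbers of the labels and no member result comes from a test. The edgeR and DESeq2 alternatives for the interaction and for the Col-0 light response were not run, since no member feature is listed in both genotype tables. Depth limits the dark CDF1 retention, with 5 spliced reads in all.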

Other observations

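Lower retention in red light was more frequent among introns of strongly induced genes in rrc1-3. Of 89 listed introns in 57 genes that were higher by a log2 of 2 or more, 50 (56.2%) had lower retention in red light. The share was 27 of 105 (25.7%) for genes higher by a log2 of 1 to 2, and 16 of 109 (14.7%) for genes higher by less than 1. It was 26 of 102 (25.5%) for genes listed as lower, and 90 of 401 (22.4%) for genes not listed. CDF1 and COL2 belong to the first class. Introns of a gene share its reads, so these shares are a description, and they were looked at after the values of CDF1 were seen.

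The mismatch of the CDF2 entry extends to its whole class. All 267 retained-intron exon bins of the dark table, all 272 of the red light table and all 20 of the light response table carry the reads of a junction outside the named gene, as do the entries of ZTL and FBH4. None of the 5977, 5731 and 823 other entries of these tables does. The cause was not tested.

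Clock genes of the CDF pathway had further splicing entries between the genotypes in red light. By the authors' deposited table PRR9 had an intron retained at 19.0% in rrc1-3 and 10.1% in Col-0, and TOC1 had an intron at 15.0% in rrc1-3 and 9.33% in Col-0 and another at 6.003% in rrc1-3 and 10.2% in Col-0. LHY had a different intron from the dark entry at 91.2% in rrc1-3 and 94.7% in Col-0, also by the authors' deposited table. PRR3 had an intron at 20.99% in rrc1-3 and 12.3% in Col-0, and an alternative 3′ splice site with a share of 39.0% in rrc1-3 and 48.6% in Col-0, by the authors' deposited table. All these differences were under 10 points in size. By size of difference the red light introns ranked 1604th to 4649th of 5270 intron entries. The dark introns ranked 2262nd to 3937th of 5580.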
